A study of Homo sapiens with 4 samples.

Results

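The regions described here are the 40 kb bins that flank the centromere gap on 17 human autosomes, chromosomes 1 to 12 and 16 to 20, in 2 prostate cancer cell lines. On each chromosome the widest entry of the LNCaP enrichment table was taken as the gap, and every 40 kb bin lying fully within 5 Mb of it on either side was a member. This gave 3498 members of 71605 bins in LNCaP and 3487 members of 71495 bins in VCaP, of which 3485 are shared by both lines. The 5 Mb on the short-arm (p) side and on the long-arm (q) side of a gap are called flanks, so that 17p is the short-arm flank of chromosome 17. LNCaP, labelled prostate adenocarcinoma, and VCaP, labelled bone metastatic prostate cancer, are established lines that were grown in continuous culture and fixed with formaldehyde. Each line contributed 1 library of chromatin precipitated with a lamin B1 antibody and 1 input library made without antibody, 4 libraries in all, and the labels name no drug or genetic change. With 1 library per group, no difference here has a replicate check, and no p-value is given.

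Lamin B1 is a filament protein of the nuclear lamina, the mesh that lines the inner nuclear membrane, and chromatin recovered with it marks DNA held at the nuclear edge. Centromeres are built on long arrays of satellite repeats and are flanked by heterochromatin that carries methylated histone H3 and HP1 proteins. In many cell types centromeric heterochromatin gathers at the nuclear edge or around the nucleoli, and the sequence beside it is rich in recent segmental duplications, where short reads are hard to place.

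The values are log2 enrichment of lamin B1 ChIP over input, where 0 means equal signal, and positions are in hg19. A deposited hidden Markov model gives each bin the label AD or iAD, and AD, which has the higher enrichment, is called associated here. Each deposited value was treated as a running mean over 3 entries, ending at its own. To undo that mean, entries of at least 200 kb, 60 in LNCaP and 72 in VCaP, were taken to be 0 and used as anchors. With the mean undone all of them lay within 0.05 of 0, the 17 gaps among them. The anchoring largely fixed that outcome in advance, so it is no check of the running mean. Under such a mean, the first 2 bins on the long-arm side of a gap average in entries wider than 40 kb. Where the gap has no other wide entry beside it, the first bin also averages in the last short-arm bin. Noise is the scatter between bins 3 apart, an SD of 0.15 in LNCaP and 0.22 in VCaP, and it includes real change along the chromosome. For a flank median it was divided by the square root of 1 value per 3 bins. This treats bins 3 apart as independent, so it can be too small where bins form blocks. Read depth is unknown, so no counting error is given.

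The gaps fell into 2 kinds. On 14 chromosomes the run of adjacent wide entries spanned between 2.96 and 3.16 Mb, and on chromosomes 16, 9 and 1 it spanned 11.0, 18.1 and 21 Mb. Wide entries are broken at multiples of 5 Mb, so the widest entry is often a piece of the run. On chromosomes 1 and 9, 3 entries tied for the widest and the first was used. That left 2 flanks, 1q and 9q, without a member, and 32 flanks with members. Of these, 15 held all 125 bins that fit, whereas 16p held 8, 1p held 35 and 9p held 49 in LNCaP and 44 in VCaP. Inside the windows, 24 wide entries in LNCaP and 27 in VCaP, 30.1 and 30.5 Mb in all, were not members. Among members, 19 in LNCaP and 13 in VCaP had a value of 0 (within 0.001) once the mean was undone, as the gaps had.

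The median over members was above 0 in both lines, close to that of all bins in LNCaP and somewhat above it in VCaP. Members were higher in VCaP than in LNCaP, and so were all bins. The median over LNCaP members was 0.09 on the log2 scale (interquartile range -0.13 to 0.34), against 0.06 over all bins. In VCaP the median was 0.29 (interquartile range 0.00 to 0.56), against 0.19 over all bins. The associated label was carried by 1415 LNCaP members, 40.5%, where 37.8% of all LNCaP bins carried it. It was carried by 1949 VCaP members, 55.9%, where 44.4% of all VCaP bins carried it. The LNCaP share thus lay near that of all bins and the VCaP share above it.

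**Figure D1:**
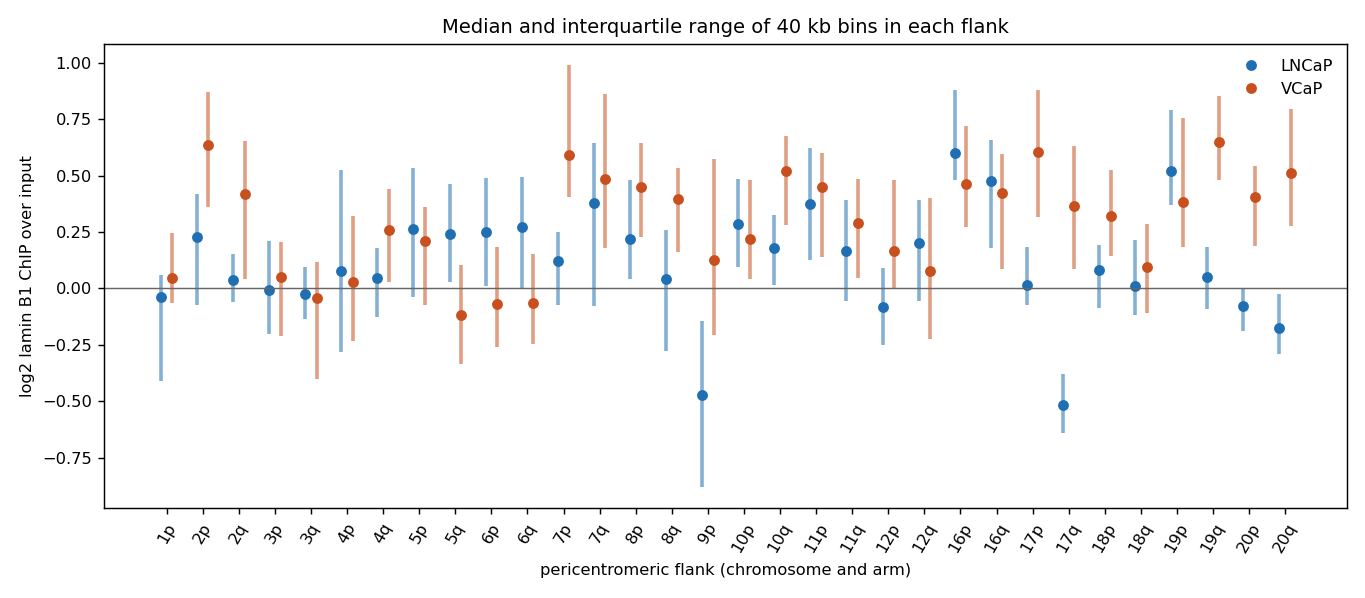
Each point is the median log2 lamin B1 enrichment of the 40 kb bins of a flank (x axis: chromosome and arm), in LNCaP (blue) and VCaP (orange), and each bar is the interquartile range of those bins. LNCaP medians ran from -0.52 (17q) to 0.60 (16p) and VCaP medians from -0.12 (5q) to 0.65 (19q).

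The flanks differed far more among themselves than the total did from all bins. The SD of the 32 flank medians was 0.24 in LNCaP and 0.23 in VCaP. For these 32 arms the medians of the rest ran from -0.19 (8q) to 0.46 (16q) in LNCaP. In VCaP they ran from -0.05 (4q) to 0.82 (19p). In LNCaP, 24 medians were above 0 and 8 below, and in VCaP 28 were above and 4 below. In LNCaP the associated label covered over 50% of members in 14 flanks and no member in 4, which were 1p, 2q, 17q and 20p. In VCaP it covered over 50% in 19 flanks, and every flank had some. The plot of flank medians shows how few flanks hold the same level in both lines.

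In LNCaP the highest flanks were those of chromosome 16 and the short arm of 19. The 16p flank, from 35000001 to 35320000, had a median of 0.60 in LNCaP and 0.46 in VCaP, from 8 bins only. With the whole run of wide entries as its gap, it had 0.30 and 0.84. The 19p flank, from 20000001 to 24640000, had 0.52 in LNCaP and 0.38 in VCaP, with 111 and 102 of its 116 bins associated. In a window of 10 Mb the 19p median in LNCaP was 0.25. The 16q flank, from 46360001 to 50000000, had 0.48 and 0.42, with 84 and 68 of 91 bins associated. All 3 flanks had medians above 0 in both lines, but in VCaP they were not among the highest flanks. In LNCaP the rest of the arm had medians of 0.46 on 16q, 0.43 on 16p and 0.24 on 19p. There 92.8%, 90.3% and 67.3% of bins were associated, so the level of 16q was that of its arm. In VCaP 82.6%, 90.7% and 99.0% of the bins in the rest of these arms were associated. The 7q flank, from 61040001 to 65000000, had 0.38 in LNCaP and 0.49 in VCaP. Its LNCaP level rested on the inner part: with the whole run of wide entries taken as the gap, which moves the window outward by 1.04 Mb, it was 0.00.

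The lowest LNCaP flanks were 17q, 9p, 20q and 12p. The 17q flank, from 25240001 to 30000000, had a median of -0.52 in LNCaP (interquartile range -0.64 to -0.38) and 0.36 in VCaP (0.09 to 0.63). None of its 119 bins was associated in LNCaP and 80, or 67.2%, were in VCaP, and the interquartile ranges did not overlap. In the rest of 17q 17.2% of bins were associated in LNCaP and 68.7% in VCaP, so the VCaP share was near that of its arm. Over all bins the shares were 37.8% in LNCaP and 44.4% in VCaP. Within 2 Mb of the gap the 17q median in LNCaP was -0.34. The 9p flank, from 45000001 to 47320000, had -0.47 in LNCaP and 0.13 in VCaP. It was the most uneven flank in both lines, with an SD over bins of 0.76 in LNCaP and 0.59 in VCaP, and it holds 5 wide entries in LNCaP. With the whole run of wide entries as its gap it had -0.26 in LNCaP and 0.12 in VCaP. The 20q flank, from 29400001 to 34400000, had -0.17 in LNCaP and 0.51 in VCaP, with 7 and 112 of its 122 bins associated. Within 2 Mb of the gap this flank had -0.06 in LNCaP. In the rest of 20q 20.9% of bins were associated in LNCaP and 80.4% in VCaP. The 12p flank, from 30000001 to 34880000, had -0.08 in LNCaP and 0.17 in VCaP. Within 2 Mb of its gap the 12p median in LNCaP was 0.24, so its sign depends on the width of the window.

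In VCaP the highest flanks were 19q, 2p, 17p and 7p. The 19q flank, from 27720001 to 32720000, had a median of 0.65 in VCaP and 0.05 in LNCaP, with 121 and 30 of its 125 bins associated. The 2p flank, from 87360001 to 92360000, had 0.64 in VCaP and 0.23 in LNCaP, and its VCaP median was 0.32 in a window of 10 Mb. The 17p flank, from 17280001 to 22280000, had 0.61 in VCaP and 0.01 in LNCaP, with 112 and 23 of 125 bins associated. The 7p flank, from 53080001 to 58080000, had 0.59 in VCaP and 0.12 in LNCaP, with 118 and 39 of 125 bins associated, and its VCaP median was 1.11 within 2 Mb of the gap. In VCaP the rest of the arm was near the flank on 19q and 17p, with medians of 0.65 and 0.57 and 93.9% and 91.9% of bins associated. It was lower on 2p and 7p, with 0.16 and 0.15 and 40.6% and 39.0%. None of these 4 flanks was among the highest in LNCaP, and in 19q, 17p and 7p most bins were associated in VCaP alone.

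The lowest VCaP flanks were 5q, 6p, 6q and 3q. The 5q flank, from 49400001 to 54400000, had a median of -0.12 in VCaP and 0.24 in LNCaP, with 12 and 75 of 125 bins associated. In the rest of 5q 33.6% of bins were associated in VCaP and 48.1% in LNCaP. The 6p flank, from 55000001 to 58800000, had -0.07 in VCaP and 0.25 in LNCaP. The 6q flank, from 61880001 to 66880000, also had -0.07 in VCaP and had 0.27 in LNCaP, with 6 and 74 of 125 bins associated. In the rest of 6q the shares were 26.7% in VCaP and 39.6% in LNCaP. On these 3 flanks LNCaP was the line with lamin B1 enrichment. The 3q flank, from 93480001 to 98480000, was low in both, at -0.04 in VCaP and -0.02 in LNCaP, the only flank with both medians below 0. The VCaP medians of 6p and 6q turned positive within 2 Mb of the gap, at 0.44 and 0.10.

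**Figure D2:**
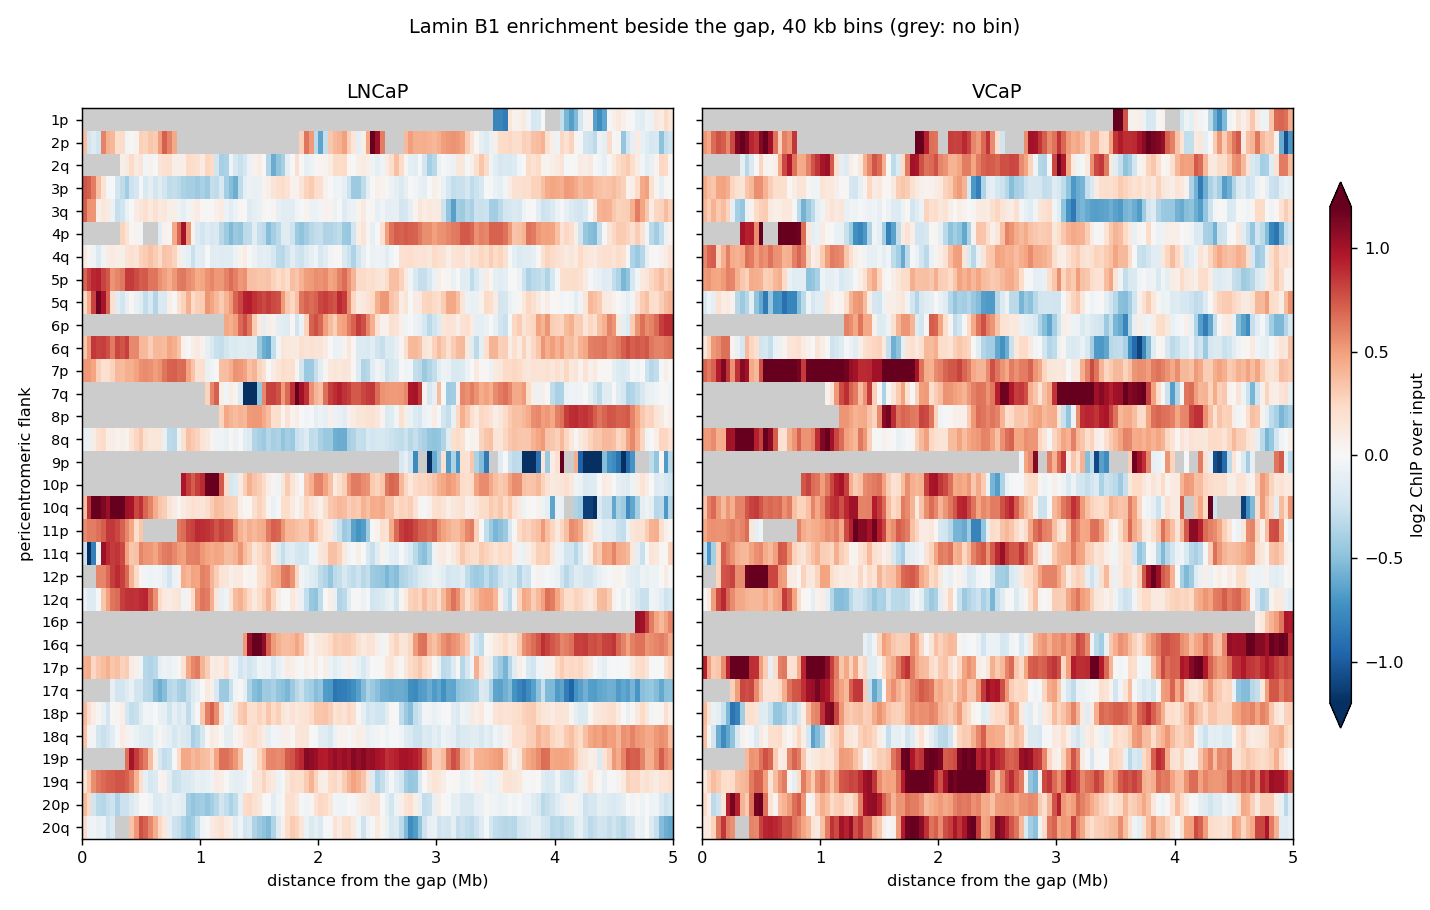
Log2 lamin B1 enrichment of every member by distance from the gap (x axis, Mb) in each of the 32 flanks (rows), for LNCaP (left) and VCaP (right). Red is enrichment, blue is depletion, and grey marks places with no 40 kb bin. The scale ends at 1.2 on either side.

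Within a flank the bins formed blocks rather than an even level, as the map of members shows. The SD over the bins of a flank had a median of 0.31 in LNCaP (range 0.17 to 0.76) and 0.36 in VCaP (range 0.26 to 0.59). The highest LNCaP bin was on 16q from 46440001 to 46480000, with a log2 value of 1.55 in LNCaP and -0.04 in VCaP, and it lies within 3 entries of the gap run. The next was on 10q from 42640001 to 42680000, with 1.35 in LNCaP and 0.59 in VCaP. The lowest LNCaP bins were neighbours on 9p, at -2.98 from 45680001 to 45720000 and at -2.30 from 45640001 to 45680000, where VCaP had -0.10 and -1.06. The deepest values thus sat in the flank that holds the most wide entries.

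The highest VCaP bin was on 12p from 34520001 to 34560000, with 2.16 in VCaP and 0.24 in LNCaP. The next was on 7p from 57080001 to 57120000, with 1.85 in VCaP and 0.19 in LNCaP. The lowest VCaP bins were on 9p from 45600001 to 45640000, at -1.13 with -1.42 in LNCaP, and on 10q from 46880001 to 46920000, at -1.12 with -0.42 in LNCaP. Undoing the mean left the 12p and 7p peaks at 2.44 and 1.93 in VCaP and the 16q and 10q peaks at 1.53 and 1.27 in LNCaP. The low bins of 9p did not keep their order: the lowest VCaP bin went from -1.13 to -0.27, while LNCaP at that bin went from -1.42 to -3.55. The lowest LNCaP bin went from -2.98 to -2.03, and VCaP there from -0.10 to 0.46.

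Enrichment was higher beside the gap than farther out in most flanks of both lines. In VCaP short-arm flanks the median of bins fell with each Mb from the gap, through 0.51, 0.42, 0.34, 0.25 and 0.13. In VCaP long-arm flanks it was 0.38 in the first Mb and 0.22 in the fifth, with values of 0.24, 0.35 and 0.21 between them, so the order was not even. In LNCaP short-arm flanks it was 0.28 in the first Mb, 0.19 in the second and between 0.06 and 0.09 beyond. In LNCaP long-arm flanks it was 0.14 in the first Mb, 0.02 and 0.01 in the next, and 0.09 and 0.10 in the outer ones. The number of flanks with bins changes with distance, from 12 to 17 on short arms and from 13 to 15 on long arms. With the whole run of wide entries as the gap, which gives all 17 short-arm flanks in every window, the VCaP series was 0.47, 0.34, 0.32, 0.26 and 0.14.

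**Figure D3:**
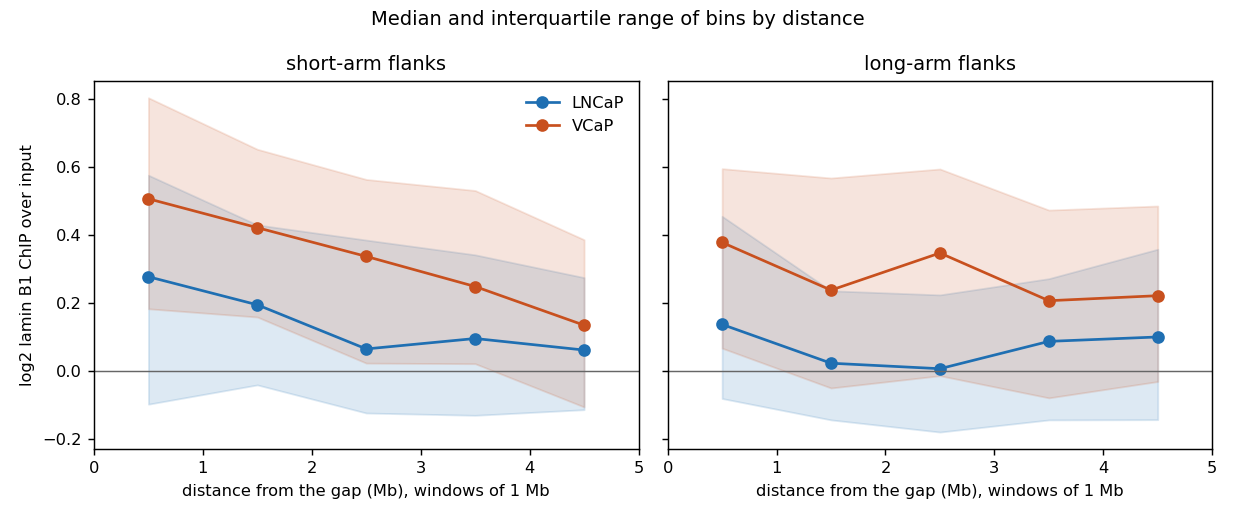
Median log2 lamin B1 enrichment of bins (points) and their interquartile range (bands) in windows of 1 Mb from the gap, for short-arm flanks (left) and long-arm flanks (right), in LNCaP (blue) and VCaP (orange). In VCaP short-arm flanks the median falls from 0.51 in the first Mb to 0.13 in the fifth.

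The associated label was also more frequent in the first Mb than in the fifth. Over all bins it covered 37.8% in LNCaP and 44.4% in VCaP. It covered 56.1% of LNCaP bins in the first Mb of short-arm flanks and 35.8% in the fifth, and 76.6% and 41.1% of VCaP bins. On long arms it covered 43.8% and 37.5% of LNCaP bins and 64.9% and 45.7% of VCaP bins in the first and in the outermost Mb. The order between was not even in LNCaP, with 57.8%, 37.8% and 41.4% on short arms and 28.5%, 34.4% and 39.7% on long arms. On VCaP long arms it was 49.0%, 57.6% and 49.6%. The outermost LNCaP shares were thus near the share of all LNCaP bins. Of the 552 shared members within 1 Mb of a gap, 222 or 40.2% were associated in both lines, where 20.6% of all shared bins were. Between 4 and 5 Mb from the gap the share associated in both was 15.8% of 766 members. The share within 1 Mb was 39.9% with the whole run as the gap and 38.7% without the 3 entries beside every wide entry.

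Flank by flank, the first Mb lay above the outer 4 Mb in 18 of the 25 flanks that have both in LNCaP and in 21 of 25 in VCaP. The difference had a median of 0.13 in LNCaP (SD over flanks 0.26) and 0.18 in VCaP (SD 0.31). It was positive in both lines in 17 flanks and negative in both in 3, which were 5q, 18p and 18q. The largest rise in LNCaP was on 10q, from 0.13 in the outer part to 0.70 in the first Mb, and the largest in VCaP was on 4p, from near 0 to 0.97 in 14 bins. Without the 3 entries beside wide entries the 4p first Mb had 0.40 in 6 bins. The largest fall in VCaP was on 18p, from 0.37 to -0.16. With the whole run as the gap the first Mb was higher in 22 of 34 flanks in LNCaP and in 24 of 34 in VCaP. The scatter between neighbouring bins, with the mean undone, was 0.19 in the first Mb and 0.20 beyond it in LNCaP, and 0.30 and 0.28 in VCaP, so bins beside the gap were about as noisy as those farther out.

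**Figure D4:**
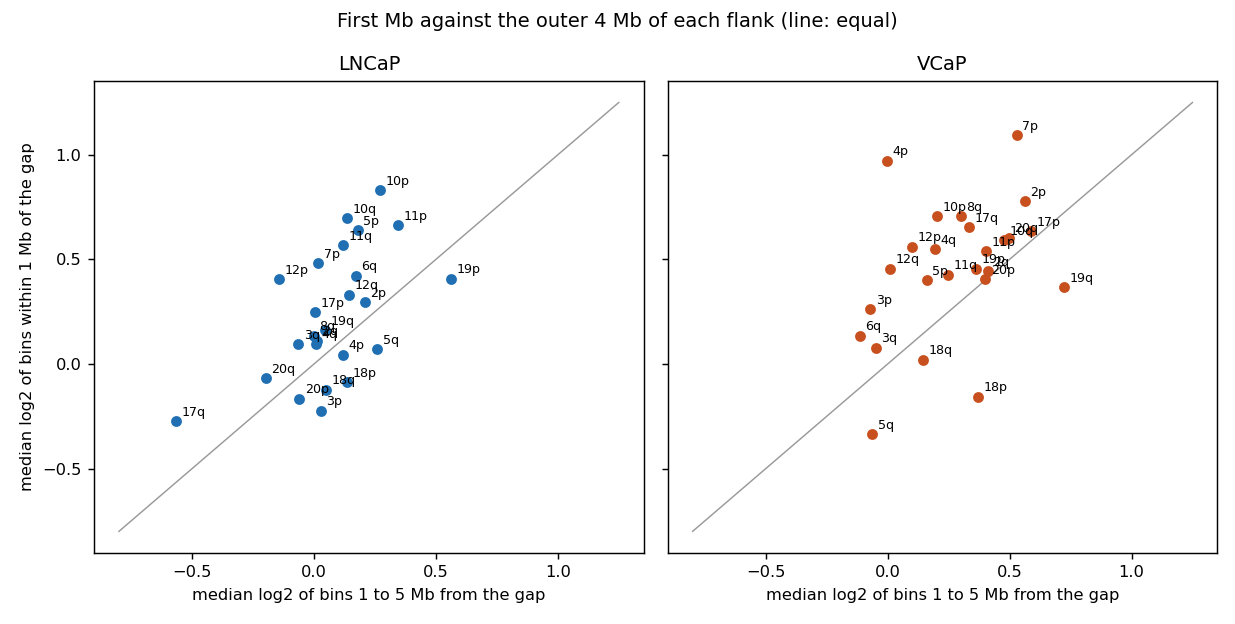
Each point is a flank, with the median log2 lamin B1 enrichment of its bins 1 to 5 Mb from the gap (x axis) and within 1 Mb of it (y axis), in LNCaP (left) and VCaP (right), and the line marks equal values. Of 25 flanks, 18 lie above the line in LNCaP and 21 in VCaP.

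The associated label reached the innermost member on over 50% of flanks. The member nearest the gap was associated in 20 of 32 flanks in LNCaP and in 21 of 32 in VCaP, where 37.8% of all LNCaP bins and 44.4% of all VCaP bins carry the label. It was associated in both lines in 15 flanks and in neither in 6. By arm, this held for 12 of 17 short-arm flanks and 8 of 15 long-arm flanks in LNCaP, and for 13 and 8 in VCaP. The run of associated bins outward from the gap had a median length of 0.40 Mb in LNCaP (range 0.04 to 2.72) and 0.84 Mb in VCaP (range 0.12 to 4.04). In LNCaP 6 of the runs reached 1 Mb, and in VCaP 10 did. The shortest LNCaP run was the first bin of 18q alone, whose value averages in the gap and the last 18p entry, and the 3 nearest 18q bins had a mean of -0.03 with the mean undone.

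The longest such runs lay on different flanks in the 2 lines. In LNCaP they were on 5p from 43720001 to 46440000 (2.72 Mb), on 11p from 49560001 to 51600000 (2.04 Mb), on 16p from 33280001 to 35320000 (2.04 Mb) and on 16q from 46360001 to 48280000 (1.92 Mb). In VCaP they were on 2p from 88320001 to 92360000 (4.04 Mb), on 7p from 55160001 to 58080000 (2.92 Mb), on 19p from 21800001 to 24640000 (2.84 Mb) and on 10q from 42320001 to 45120000 (2.80 Mb). The 11p, 16p and 2p runs take in wide entries, and the 16p run goes past the window. The 16p and 16q runs start 4.68 and 1.36 Mb from the gap. On the same flanks the other line had shorter runs or none: VCaP had 0.72 Mb on 5p, 0.40 Mb on 11p and none on 16p or 16q, and LNCaP had none on 2p, 1.56 Mb on 7p, 0.24 Mb on 19p and 1.32 Mb on 10q.

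The short-arm flank was more often the higher of the pair. Outside the windows the rest of the short arm also had the higher median on most of these chromosomes in both lines, so this was not particular to the flanks. Of the 15 chromosomes with members on both sides, the short-arm median was higher on 12 in LNCaP and on 10 in VCaP. Beyond about 2 times the noise, the short arm was higher on 8 and the long arm on 2 in LNCaP, and the short arm on 6 and the long arm on 4 in VCaP. Because this noise treats bins 3 apart as independent and flanks are made of blocks, it can be too small. These counts describe bins of 1 library pair per line, and a difference between arms was not tested. The median of the short-arm minus long-arm differences was 0.09 in LNCaP (SD over chromosomes 0.22) and 0.09 in VCaP (SD 0.19). These medians were smaller than the spread over chromosomes. The direction was the same in both lines on 9 of the 15 chromosomes. On chromosome 17 the short-arm flank was higher in both, by 0.53 in LNCaP and 0.24 in VCaP. The rest of the arms had medians of 0.12 on 17p and -0.06 on 17q in LNCaP, and 0.57 and 0.43 in VCaP. On chromosome 19 the lines went opposite ways: the short-arm flank was 0.47 higher in LNCaP, and the VCaP difference was -0.26, with the long arm higher. There the rest had 0.24 on 19p and -0.17 on 19q in LNCaP, and 0.82 and 0.65 in VCaP. On chromosome 12 the LNCaP difference was -0.28 and the VCaP difference was 0.09. The rest of 12p and 12q had -0.05 and -0.07 in LNCaP, and 0.15 and 0.17 in VCaP.

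Set against the rest of its own arm, a pericentromeric flank was about as often lower as higher. In LNCaP the flank median lay above the median of the other bins of the arm in 18 of 32 flanks, with a median difference of 0.03 (range -0.47 to 0.42). In VCaP it lay above in 16 of 32, with a median difference of 0.00 (range -0.44 to 0.48). In 8 flanks it was above in both lines and in 6 it was below in both. The flank most above its arm was 7q in LNCaP, at 0.38 against -0.04, and 2p in VCaP, at 0.64 against 0.16. The flank most below its arm was 9p in LNCaP, with a difference of -0.47. The flank most below its arm in VCaP was 19p, at 0.38 against 0.82, although 87.9% of its bins were associated. Against the outermost 5 Mb of the same arm, flanks were higher in 13 of 32 cases in LNCaP, with a median difference of -0.04, and in 4 of 32 in VCaP, with a median difference of -0.34.

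As deposited, VCaP was higher on 20 of the 32 flanks and LNCaP on 12, and with the lines centred the split was 16 and 16. Over the 3485 shared members the median VCaP minus LNCaP difference was 0.16 (interquartile range -0.16 to 0.50), against 0.10 over all 71436 shared bins. VCaP lay above LNCaP by more than 0.53, a threshold of about 2 times the noise SD of a difference (0.27), in 806 members or 23.1%, where 19.6% of all shared bins did. LNCaP lay above VCaP by as much in 221 members or 6.34%, where 8.28% of all shared bins did. The VCaP median of all shared bins is 0.13 above that of LNCaP, and with each line centred on its own median the difference over all members was 0.03. Quantile normalization also gave 16 flanks higher in each line.

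The largest VCaP excess was on 17q, with a median difference of 0.90 against noise of 0.04 (SD). There 93 of 119 bins, 78.2%, exceeded the threshold, where 19.6% of all shared bins did. The VCaP excess was 0.77 on 9p (noise SD 0.07), 0.71 on 20q (0.04) and 0.65 on 19q (0.04). The excess was not confined to the flank on 3 of these arms. The rest of the arm had medians of -0.06 in LNCaP and 0.43 in VCaP on 17q. It had -0.04 and 0.55 on 20q and -0.17 and 0.65 on 19q, while on 9p it had -0.0045 and 0.09. The largest LNCaP excess was on 5q, with a difference of -0.39 against noise of 0.04. There 43 of 125 bins, 34.4%, lay beyond the threshold, where 8.28% of all shared bins did. The difference was -0.35 on 6q (noise SD 0.04), -0.26 on 6p (0.05) and -0.18 on 4p (0.04). The rest of the arm had medians of 0.14 in LNCaP and 0.08 in VCaP on 5q and 0.10 and 0.06 on 6q. On 6p it had 0.15 and 0.16, and on 4p 0.20 and 0.26. All 8 of these flank differences kept their direction when the lines were centred or quantile normalized, but 3 of the LNCaP excesses depended on the window. Within 2 Mb of the gap the difference was -0.07 on 6q, -0.03 on 6p and 0.21 on 4p, and on 5q it was -0.50. In 16 flanks VCaP and in 8 LNCaP was higher by more than about 2 times this noise, and 8 lay within it. This noise treats bins 3 apart as independent, although the bins of a flank form blocks, so it can be too small. On 4p the difference of -0.18 exceeded it, but was -0.06 with means over bins. The counts describe bins of 1 library pair per line, and whether a flank differs between the lines was not tested.

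**Figure D5:**
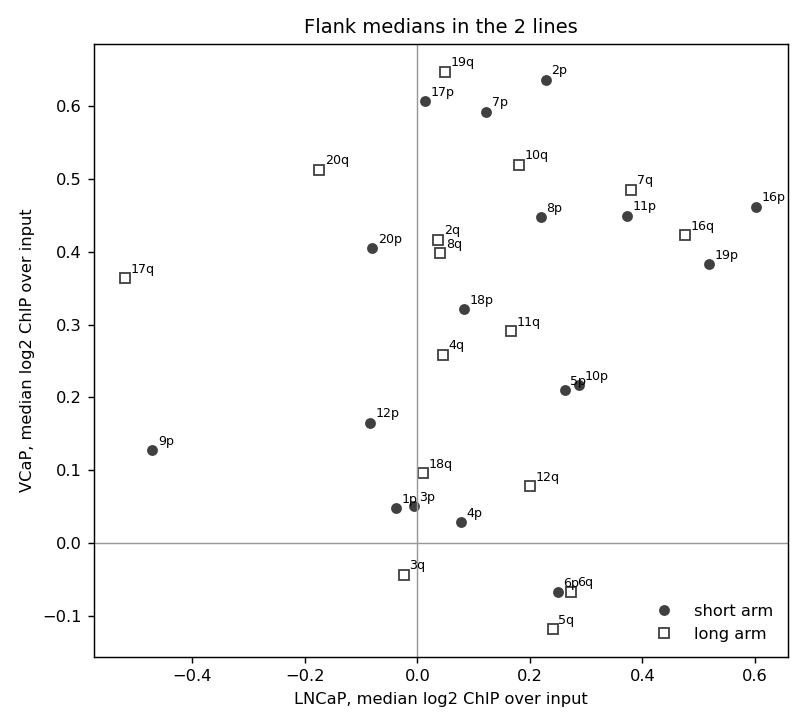
Each point is a flank, placed by its median log2 lamin B1 enrichment in LNCaP (x axis) and VCaP (y axis), with filled circles for short arms and open squares for long arms. In 10 of the 32 flanks the medians have opposite signs, 7 of them in the upper left (LNCaP below 0) and 3 in the lower right (VCaP below 0).

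Members were then sorted by their label in the 2 lines. Both lines were associated in 911 members or 26.1%, against 20.6% of all shared bins. VCaP alone was associated in 1037 members or 29.8%, against 23.8%. LNCaP alone was associated in 501 or 14.4%, against 17.2%, and neither in 1036 or 29.7%, against 38.4%. On short arms the share associated in both was 31.1% of 1694 members and on long arms it was 21.5% of 1791.

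Runs of at least 25 adjacent members in 1 class show where the lines part. There were 15 runs associated in VCaP alone, on 10 flanks and 24.9 Mb in all, and 6 associated in LNCaP alone, on 6 flanks and 8.56 Mb. No count of such runs in other bins is given. Over all shared bins, too, more were associated in VCaP alone (23.8%) than in LNCaP alone (17.2%). The longest of the first kind was on 20p from 22520001 to 26120000, where 90 bins averaged -0.07 in LNCaP and 0.51 in VCaP. The longest of the second kind was on 5q from 50800001 to 52600000, where 45 bins averaged 0.48 in LNCaP and -0.22 in VCaP. The next was on 6q from 65280001 to 66880000, 40 bins with 0.48 and -0.22. All 6 LNCaP runs lay on chromosomes 3, 5, 6 and 10.

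There were also long stretches shared by both lines. The longest run associated in both was on 19p from 21800001 to 24200000, where 60 bins averaged 0.70 in LNCaP and 0.65 in VCaP. The run on 7p from 56520001 to 58080000, which touches the gap, was associated in both but averaged 0.40 in LNCaP and 1.11 in VCaP. The longest run associated in neither was on 3q from 93720001 to 97800000, where 102 bins averaged -0.09 and -0.17. This run began 0.24 Mb from the gap and left 4.08 Mb of 3q free of the associated label in both lines.

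Bins of a flank went up and down together in the 2 lines more than the flanks themselves did. Over the 3485 shared members Pearson r between the lines was 0.282 and Spearman rho 0.283, against 0.281 and 0.297 over all shared bins. After subtracting the mean of each flank r was 0.401. Within single flanks r was above 0 in 30 of 32, with a median of 0.435. The exceptions were 1p, at -0.02, and 16p, at -0.80 over 8 bins, and the highest was 20q, at 0.744. Across the 32 flank medians r was 0.114 and rho 0.123. These are descriptions over bins and flanks of the same 2 library pairs, and neighbouring bins share averaged entries.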

How the data were processed

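Lamin B1 ChIP and input libraries of LNCaP and VCaP, 1 each, were grouped by the titles in the labels. The deposited log2 values are ChIP over input per 40 kb bin, with adjacent equal bins in a single wider entry. The authors' scaling of ChIP to input, filters and model settings are not given in the sources used here. STAR and hg19 are listed in the submitters' processing notes. The deposited state tables label each entry AD or iAD. All value columns were mapped to a line.

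Members, flanks, lists and alternatives were chosen with earlier results of these data known. Named in the text are, per line, the 4 highest and 4 lowest flanks by median, the 4 longest associated runs from the gap and the 2 highest and 2 lowest bins, and the 4 largest line differences in each direction; flanks singled out otherwise were chosen after their values were seen. Differences were computed over bins of equal position. Noise is 1.4826 times the median absolute deviation of differences between bins 3 apart, divided by the square root of 2, and that of a line difference combines both lines. The trailing mean was undone by recursion, anchored on entries of at least 200 kb. No gene or sequence is named, since the reference at hand is of another build than the files. Procedures were tested on simulated data. The tools were matplotlib 3.10.9, scipy 1.17.1, pandas 2.3.3 and numpy 2.4.6 under Python 3.11.15.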

Additional observations from a re-analysis of the deposited data

Results flagged for a closer look

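In 10 of the 32 flanks the median log2 enrichment was on opposite sides of 0 in the 2 lines, which is what drew attention to them, and with 1 library pair per line the difference was not tested. In 7 of them LNCaP was below 0 and VCaP above. The VCaP median minus the LNCaP median was 0.88 on 17q, 0.69 on 20q, 0.60 on 9p, 0.48 on 20p, 0.25 on 12p, 0.086 on 1p and 0.056 on 3p. In 3 of them LNCaP was above 0 and VCaP below, with differences of -0.36 on 5q, -0.34 on 6q and -0.32 on 6p. On 3p the LNCaP median was -0.01, and the median of the differences of single bins had the other sign, at -0.04. Outside the window, the rest of the arm had opposite signs in 13 of the same 32 arms. With each line centred on its median over all shared bins, 6 of the 10 flanks kept opposite signs, which were 17q, 20q, 20p, 5q, 6q and 6p, and 13 flanks had opposite signs in all.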

How the results depend on the processing

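The 47 results were recomputed under the alternatives, which gave 500 values. Of the 23 results over all members, 149 alternative values kept their direction and differed by no more than the noise of a bin or, for counts, shares and lengths, by at most 1.5 times, 12 moved by more and 5 changed sign, beside 17 sets that each left out a chromosome. Within those 149, the line difference over all members went from 0.16 to 0.03 with centred lines and to 0.05 with quantile normalization, the LNCaP level from 0.09 to 0.05 with a window of 10 Mb, and the short-arm minus long-arm difference in VCaP from 0.09 to 0.05 without members within 1 Mb of the gap. The noise of a bin is larger than several of the results themselves, so a value among these 149 could still lie near 0. The median difference between a flank and the rest of its arm changed sign. In LNCaP it was 0.03 as reported, -0.0494 with a window of 10 Mb and 0.0013 with means over bins. In VCaP it was 0.0015 as reported, 0.13 with a window of 2 Mb, -0.0390 with a window of 10 Mb, -0.0253 without members within 1 Mb of the gap, -0.0271 without the 3 entries beside wide entries and -0.00054 with means over bins, and it ranged from -0.0211 (without chromosome 2) to 0.0147 (without chromosome 3) when each chromosome was left out in turn. The share of members in which VCaP was higher beyond noise was 13.5% with the trailing mean undone, 15.4% with quantile normalization and 42.8% with noise from neighbouring bins, by construction of a lower threshold. The share in which LNCaP was higher was 3.39%, 11.2% and 18.7% under the same settings and 10.9% with centred lines. Calling every bin over 0 associated raised the share associated in both lines to 49.3% and lowered that in neither to 14.5%, and a running median of 5 bins gave 49.3% and 14.0%, with a median VCaP run of 1.56 Mb from the gap. Among named flanks, 13 values moved and 5 changed sign. In a window of 2 Mb LNCaP medians were 0.24 on 12p, -0.34 on 17q and 0.53 on 7q, and the VCaP median was 1.11 on 7p. In a window of 10 Mb LNCaP medians were 0.25 on 19p, 0.30 on 16p, 0.03 on 7q and -0.31 on 9p, and the VCaP median was 0.32 on 2p. In VCaP 6p was 0.44 and 6q 0.10 within 2 Mb, and 6p was 0.0328 with the mean undone. The line difference within 2 Mb was 0.21 on 4p, -0.07 on 6q and -0.03 on 6p. The cause of these changes was not tested. Taking the whole run of wide entries as the gap, and leaving out 1p, 9p and 16p, were added after seeing the data and changed no sign among the results over all members. No paired analysis was possible because there was a single library of each kind per line. Read depth is unknown, and the noise between bins is the only limit given for single flanks. That limit can be too small where bins form blocks.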

Other observations

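Chromosomes 1, 9 and 16 have the longest gaps, and the bins beside the whole run of wide entries there are mostly not members. These values were looked at after the data were seen. On chromosome 1 the long-arm side of the run, which starts past 142520000, had a median log2 enrichment of 0.04 in LNCaP over 115 bins and 0.15 in VCaP over 112 bins, with 24.3% and 35.7% of bins associated. On chromosome 9 the long-arm side had -0.21 in LNCaP over 99 bins and 0.28 in VCaP over 103 bins, and the short-arm side had -0.26 and 0.12. Both sides of the chromosome 9 run were thus below 0 in LNCaP and above 0 in VCaP. On chromosome 16 the short-arm side had 0.30 in LNCaP and 0.84 in VCaP over 122 bins, with 80.3% and 95.9% of bins associated, where the 8 members nearest the widest entry had 0.60 and 0.46.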
